A study of Mus musculus with 4 samples.

Results

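Peaks of accessible chromatin were examined at 10 mouse genes that make or host cardiovascular microRNAs: Egfl7, the Mir126a gene that lies within it, the smooth muscle pair Mir143 and Mir145a, and the myocyte microRNA genes Mir1a-1, Mir1a-2, Mir133a-1, Mir133a-2, Mir208a and Mir499. They were chosen by name from 53843 genes of the GENCODE annotation, of which 2196 are microRNA genes, and the 9 microRNA genes among them lie at 6 loci, so they are not 9 independent observations. For each member, peaks were taken over the microRNA hairpin, at the starts of its host transcripts and in the 20 kb upstream.

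The study asked whether heart endothelial cells hold open chromatin at genes typical of other heart cells. Nuclei came from the hearts of male Cdh5-Cre/NuTRAP mice aged 8 to 12 weeks on a C57BL/6 background. All mice carried both alleles. The NuTRAP allele tags ribosomes with GFP once Cre has acted, and the Cdh5 promoter, which is active in endothelial cells, drives Cre. Nuclei were sorted by GFP signal. GFP+ nuclei are therefore those of cells of endothelial descent, and GFP- nuclei are the other nuclei of the heart, with myocytes, fibroblasts, smooth muscle and other cells mixed. The sort took single nuclei of diploid DNA content, so polyploid nuclei were left out. ATAC-Seq, in which the Tn5 transposase cuts DNA where it is accessible, was run on 100 to 50000 nuclei, with 2 replicates of GFP- and 2 of GFP+. The peak lists pool the replicates, so no difference below could be set against a spread between replicates and none was tested.

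MicroRNAs are short RNAs cut from a hairpin in a longer transcript, and the seed near their 5′ end pairs with target messenger RNAs. miR-126 is made from an intron of Egfl7, which codes for a protein secreted by endothelial cells, and acts in vessel growth and integrity. miR-143 and miR-145 are known for their roles in smooth muscle, whereas miR-1 and miR-133a are shared by heart and skeletal muscle, and miR-208a and miR-499 lie in introns of the myosin heavy chain genes Myh6 and Myh7b.

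Sequences are shown first for the endothelial microRNA and for the microRNAs of myosin genes. The RefSeq tables of GRCm38.p6 held a mature sequence for 4 of the 9 member microRNA genes. The Mir126a hairpin lies at chr2:26591357-26591429 on the plus strand, and capitals mark the arm that becomes miR-126a-3p:
Mir126a hairpin: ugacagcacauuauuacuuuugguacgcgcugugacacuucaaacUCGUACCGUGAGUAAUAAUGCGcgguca
In the mature forms capitals mark the seed, bases 2 to 8. The first is the endothelial microRNA, and the others are microRNAs of myosin genes, with miR-208b, of Myh7, added for comparison:
miR-126a-3p: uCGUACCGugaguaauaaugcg
miR-208a-3p: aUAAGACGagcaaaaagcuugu
miR-208b-3p: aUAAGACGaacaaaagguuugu
miR-499-5p: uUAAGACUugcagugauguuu
miR-208a-3p and miR-208b-3p shared all 7 seed bases, miR-208a-3p and miR-499-5p shared 6 of 7, and miR-126a-3p shared 2 of 7 with miR-208a-3p at the same positions. The 3 myosin microRNAs thus form a group by seed, and miR-126a-3p stands outside it.

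Regulatory sequence is shown at 3 of the peaks described below, each from GRCm38 on the plus strand, with motif matches in capitals. The first is the 200 bp around the summit of the largest peak upstream of Egfl7 in the GFP+ list, chr2:26578490-26578689, in intergenic sequence, and its capitals are a reverse-strand match to the ETS word CAGGAAGT. ETS factors are regulators of endothelial genes.
Egfl7 upstream summit: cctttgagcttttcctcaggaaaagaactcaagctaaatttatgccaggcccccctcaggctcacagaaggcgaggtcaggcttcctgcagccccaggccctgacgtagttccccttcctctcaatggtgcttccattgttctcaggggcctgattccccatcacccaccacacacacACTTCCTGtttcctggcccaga
The second is the 249 bp just upstream of the Egfl7 start at position 26583864, chr2:26583615-26583863, with the same word on the plus strand.
Egfl7 promoter: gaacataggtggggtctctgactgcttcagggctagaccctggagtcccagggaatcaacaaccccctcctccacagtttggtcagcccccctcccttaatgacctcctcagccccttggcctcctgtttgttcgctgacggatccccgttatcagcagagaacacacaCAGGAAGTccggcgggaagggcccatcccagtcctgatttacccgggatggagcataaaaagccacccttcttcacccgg
The third is the 200 bp around the GFP+ summit at the start of Myh7b, the host of Mir499, chr2:155611012-155611211, with the GATA word AGATAA.
Myh7b start: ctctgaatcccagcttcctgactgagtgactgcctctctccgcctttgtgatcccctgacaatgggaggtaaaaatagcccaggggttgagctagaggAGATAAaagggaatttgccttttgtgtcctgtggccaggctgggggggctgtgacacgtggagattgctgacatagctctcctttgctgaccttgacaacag
The ETS word was present in 2.68% of 32851 RefSeq promoters over the same 249 bp and in 2.89% of GFP- and 3.18% of GFP+ 200 bp summit windows, and the GATA word in 8.97% and 8.87% of those windows, on either strand. The printed summit windows were the only GFP+ ones with their word, 1 of 15 at the Egfl7 locus for ETS and 1 of 25 at the myocyte loci for GATA. In GFP- the counts were 2 of 11 and 2 of 26. A match is a description of the sequence and not evidence of binding.

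The lists held 78912 GFP- and 65008 GFP+ peaks, covering 52.1 and 41.8 Mb. Read depth per library is not analysed here, and the area of a peak, its signal summed over its length, depends on how each list was called. Each peak was therefore given its rank by area in its own list, a percentile from 0 to 100 in which 100 is the largest peak and 0 stands for no peak, and a difference between lists was counted when it exceeded 20 points. Marker genes were used to check the labels of the populations. The highest rank at transcript starts was over 20 points higher in GFP+ for 5 of 8 endothelial markers and over 20 points lower for 1, Tek, and their median was 33.1 in GFP- and 86.6 in GFP+. Over all 21755 protein-coding genes, 1.22% were higher and 4.6% lower by this measure. Of 6 smooth muscle markers 0 were higher and 1 lower, with medians of 50.7 and 30.2. Acta2 and Tagln, which code for contractile proteins of smooth muscle, had ranks of 27.7 and 7.99 in GFP- and no start peak in GFP+. Smtn (92.7 in GFP- and 92.5 in GFP+) and Myocd (89.3 and 89.5) were alike in both lists. Myh11 had ranks of 73.7 and 60.3, and Cnn1 had no start peak in either list. Of 6 fibroblast markers 0 were higher and 3 lower, with medians of 81.0 and 0. The 8 cardiomyocyte markers gave 0 higher and 0 lower, with medians of 97.1 and 94.0, and Nppa was at 0 in both lists. In sorted bulk nuclei a larger share of nuclei with a site open cannot be told apart from a wider opening in each nucleus.

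At Egfl7 and Mir126a the peaks were longer and higher-ranked in GFP+ than in GFP- over the gene and most of the upstream sequence, with the most distant upstream pair as the exception. The study itself displayed Egfl7 as an endothelial gene in these nuclei, so its direction here is no independent choice. Egfl7 spans chr2:26580014-26593120 on the plus strand, and the Mir126a hairpin is intronic in 8 of 9 GENCODE Egfl7 transcripts that contain it, exonic in 1, and intronic in the readthrough transcript of Gm20532. The hairpin lay under a GFP- peak of 681 bp, chr2:26590884-26591564, at rank 25.3. In GFP+ it lay under a peak of 1353 bp, chr2:26590867-26592219, at rank 71.5. The hairpin was thus inside called peaks in both populations, and the GFP+ peak was the longer and stood 46.1 points higher by area. By summit -log10 p the ranks were 0.504 in GFP- and 29.8 in GFP+, and by area per bp 2.36 and 20.3. By these measures the GFP+ peak stood much lower in its list than by area.

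Egfl7 has 22 distinct annotated starts, and 15 of them had a peak in GFP- and 22 in GFP+. All 22 had the higher rank in GFP+, 17 of them by over 20 points, with a median difference of 46.1 points and a range of 18.1 to 98.7. The upper end is the start at position 26592147, through a peak centred beyond the gene that is described below. Several starts lie in the same peak and do not count as separate evidence. At the start at position 26583864, whose promoter is printed above, the rank was 53.5 in GFP- (chr2:26583569-26584406) and 89.4 in GFP+ (chr2:26583269-26584555). At the starts near position 26586630 it was 72.6 in GFP- (chr2:26586355-26587472) and 90.8 in GFP+ (chr2:26585623-26587489), where the GFP+ peak also took in a second GFP- peak of 421 bp at rank 43.2. The start at position 26581056 had no GFP- peak and a GFP+ peak of 896 bp, ranked 70.3. Farther downstream, the start at position 26588543 had rank 11.3 in GFP- and 75.0 in GFP+, and the start at position 26589335 had no GFP- peak and lay in the same GFP+ peak. The starts near position 26586630 thus had the highest GFP- rank of all Egfl7 starts, and starts to both sides of them had lower ranks or no peak.

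For the 13 starts of transcripts that contain Mir126a, the top start peak ranked 72.6 in GFP- against 90.8 in GFP+, a difference of 18.1 points, under the 20 points that count as a call. That call depends on the setting, since the difference was 20.3 points with 1000 bp to each side of a start or with the 5′ end of the host gene record alone, 37.1 points by rank of summit -log10 p and 45.3 points by rank of area per bp. For all Egfl7 starts the difference was 26.1 points, set by the start of a retained-intron transcript at position 26592147, which lies within 250 bp of a GFP+ peak of 5183 bp, chr2:26592366-26597548, at rank 98.7. The summit of that peak lies in introns of Agpat2 and Gm20532, beyond the 3′ end of Egfl7, and the GFP- list had a 1298 bp peak there, ranked 72.2, with its summit at the same base. Counting only peaks over the start base itself, the difference for Egfl7 was 20.3 points, still above the limit, through the start at position 26580014 in the upstream peak at rank 93.0.

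**Figure D1:**
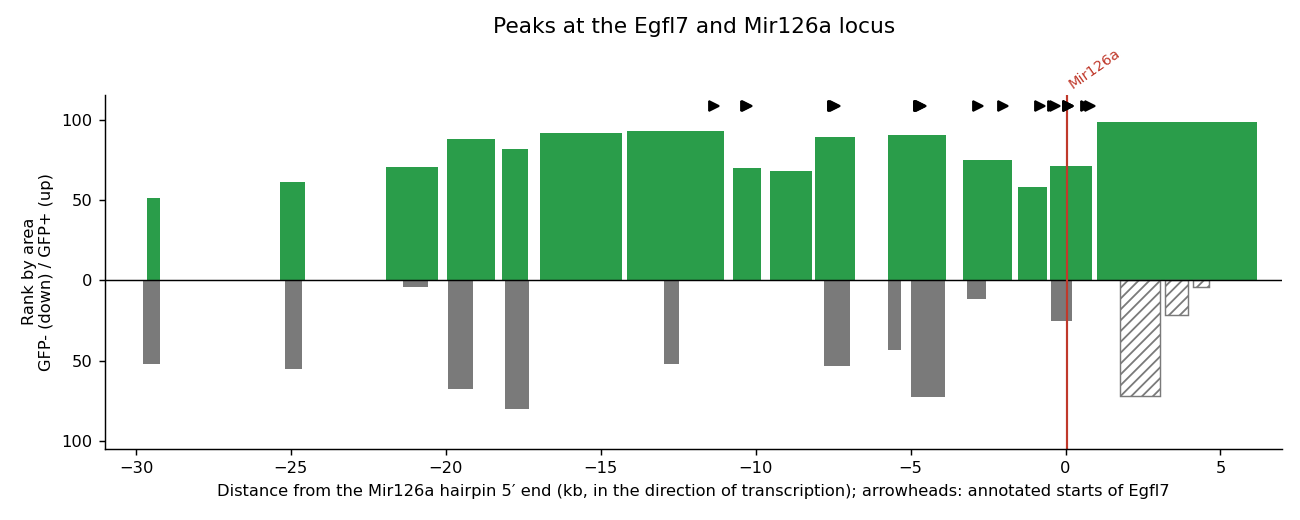
Peaks at the Egfl7 and Mir126a locus by distance in kb from the hairpin 5′ end (red line), with GFP+ peaks above and GFP- peaks below the axis, bar height as the percentile rank by area in the own list, bar width as peak length and arrowheads at annotated starts; hatched bars are GFP- peaks that lie outside the windows but overlap a GFP+ peak. The 15 GFP+ peaks covered 62.6% of the locus and the 11 GFP- peaks 23.7%, and all 4 GFP+ peaks without a GFP- partner lie upstream of the hairpin.

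The sequence upstream of the hairpin held the widest difference. From position 26580014 on it lies within Egfl7 and takes in starts described above. In the 20 kb upstream of Egfl7 itself the covered length was 3991 bp in GFP- and 10700 bp in GFP+. Within 20 kb of the hairpin, GFP- had 8 peaks that covered 5529 bp and GFP+ had 11 that covered 16554 bp, 2.99 times as much. Of all 2196 microRNA genes Mir126a gained the most covered sequence in GFP+, 11025 bp, and it moved from 65th to 2nd in the order of covered sequence. By comparison, 15.9% of microRNA genes had more covered sequence in GFP+ and 36.1% had less. Mir126a was the first in gain also with windows of 10 kb or 50 kb and with peaks of the lowest 20% of area left out, and the next, Mir497, gained 3986 bp.

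The peak whose summit sequence is printed above stood at rank 52.0 in GFP- with a length of 493 bp (chr2:26578387-26578879) and at rank 93.0 in GFP+ with a length of 3135 bp (chr2:26577209-26580343). By area per bp the ranks were 44.5 in GFP- and 42.9 in GFP+, and by summit -log10 p they were 47.9 and 81.3. The rise by area thus goes with the greater length, and signal per bp did not rise. The summits were 1 bp apart, so the same centre was called in both populations and the GFP+ peak reached farther to both sides. Next to it, a peak of 2633 bp, chr2:26574407-26577039 at rank 91.8, was called in GFP+ alone. The other GFP+ peaks with no GFP- partner were chr2:26580624-26581519 at rank 70.3, chr2:26581826-26583158 at rank 68.6 and chr2:26589810-26590759 at rank 58.0, all within the Egfl7 gene.

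Not every peak of the locus differed by as much. Farther upstream, chr2:26573162-26574008 had rank 82.3 in GFP+ and its partner chr2:26573269-26574052 had rank 79.9 in GFP-, where it was the highest-ranked peak of the locus. The most distant pair, chr2:26561701-26562127 in GFP+ and chr2:26561593-26562127 in GFP-, had ranks of 51.2 and 52.0. In between, chr2:26571390-26572937 had rank 88.2 in GFP+ against 67.8 for its GFP- partner. Because of the shared peak at 79.9, the highest rank within 20 kb upstream differed by only 13.1 points (79.9 in GFP- and 93.0 in GFP+) for both Egfl7 and Mir126a, although the covered length grew 2.68 and 2.99 times. That difference was smaller still with other ranks, at 1.25 points for Egfl7 and 2.25 for Mir126a by summit -log10 p and at 1.40 and 2.19 by area per bp.

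Mir143 and Mir145a showed the opposite pattern, with longer and higher-ranked peaks in GFP-. Both lie on the minus strand of chromosome 18, Mir143 at chr18:61649196-61649258 and Mir145a at chr18:61647825-61647894, and both are intronic in the long noncoding RNA gene Carmn of the RefSeq annotation, whereas the GENCODE Carmn record ends before them. In GFP-, Mir145a lay under a peak of 4226 bp, chr18:61644382-61648607, at rank 95.4, and Mir143 under a peak of 1350 bp, chr18:61648775-61650124, at rank 39.2. In GFP+, Mir145a lay under a peak of 1140 bp, chr18:61647066-61648205, at rank 74.4, and Mir143 lay under none, with the nearest peak 990 bp away. A second GFP+ peak, chr18:61645048-61646687 at rank 67.9, lay beyond the hairpins under the same long GFP- peak. The summits of the GFP- and GFP+ peaks over Mir145a lie in an exon of another gene, Bvht. The hairpin of Mir145a was thus within a peak in both populations, and that of Mir143 in GFP- alone.

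The RefSeq start of Carmn at position 61665538 lay in a GFP- peak of 2569 bp, chr18:61664256-61666824, at rank 96.5. GFP+ had no peak within 250 bp, which gives a difference of -96.5 points. That value depends on the window, since a GFP+ peak of 581 bp, chr18:61666259-61666839 at rank 80.1, begins 721 bp from the start and has its summit 1 bp from the GFP- summit. With 1000 bp to each side the difference was -16.4 points and no longer a call. The same centre was thus open in both lists, and the GFP- peak extended over the start whereas the GFP+ peak did not.

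The other peaks inside Carmn differed among themselves. With its summit 11090 bp upstream of Mir143, a GFP- peak had a length of 2044 bp and rank 92.9 (chr18:61658987-61661030), and the GFP+ peak a length of 443 bp and rank 50.1 (chr18:61660159-61660601), with the summit at the same base. The peak chr18:61654607-61656315, at rank 82.4, was called in GFP- alone. The peak nearest upstream of Mir143 was nearly alike in length, 2617 bp in GFP- and 2479 bp in GFP+, with ranks of 94.6 and 89.6. That peak held the only CArG match of the locus, within its 200 bp summit window in both lists. CArG boxes are bound by SRF, a regulator of smooth muscle genes, and 10.9% of GFP- and 10.5% of GFP+ peaks of similar length held 1 or more. The match is not particular to this locus. At the Egfl7 locus 0 of 11 GFP- and 2 of 15 GFP+ peaks held it, beside medians of 3.34% and 5.62% for similar length. At the myocyte loci it was 1 of 26 and 1 of 25, beside 3.44% and 3.49%.

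Within 20 kb upstream, the covered length fell from 9805 bp in GFP- to 3503 bp in GFP+ for Mir143 and from 11002 to 3814 bp for Mir145a. Of all 2196 microRNA genes, Mir145a lost the most and Mir143 the second most, -7188 and -6302 bp, and their windows overlap nearly in full, so that this is 1 observation. With windows of 10 kb they were 2nd and 4th, and with 50 kb 1st and 5th. The highest upstream rank was 96.5 in GFP- and 89.6 in GFP+, a difference of -6.96 points, and turned to 12.9 points in favour of GFP+ when peaks were ranked by area per bp. Beyond Carmn, the pair of peaks at 33607 bp upstream had ranks of 83.0 in GFP- and 78.0 in GFP+.

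The myocyte microRNA genes had much the same peaks in both lists, and these included some of the largest in the genome. Mir1a-1 (chr2:180389048-180389124) and Mir133a-2 (chr2:180398379-180398482) lie on the plus strand in introns of the RefSeq host transcript Mir1a-1hg. Mir133a-2 lay under a GFP- peak of 11686 bp, chr2:180392072-180403757, the 3rd largest of its list by area. In GFP+ it lay under a peak of 8327 bp, chr2:180395281-180403607, the 6th largest. The GFP- domain was called as 2 peaks in GFP+, the other being chr2:180392201-180394720 at rank 97.6, whose summit was 29 bp from the GFP- summit.

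Mir1a-1 lay under a peak of 3641 bp in GFP- (chr2:180388120-180391760, rank 94.7) and of 3580 bp in GFP+ (chr2:180388158-180391737, rank 94.1), with summits 3 bp apart. The host start at position 180385604, which is close to the divergent gene B230312C02Rik, had a peak at rank 96.1 in GFP- and 95.9 in GFP+. A smaller peak between start and hairpin moved more, from rank 47.1 in GFP- to 27.3 in GFP+. Apart from it and a peak 12130 bp upstream, at 54.7 and 48.0, all peaks of this locus had ranks above 94 in both lists.

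Mir208a, at chr14:54949060-54949142 on the minus strand, is intronic in Myh6, the alpha cardiac myosin heavy chain gene. Its hairpin lay under a peak of 6551 bp in GFP- (chr14:54944510-54951060, rank 99.8, 137th by area) and of 5932 bp in GFP+ (chr14:54945105-54951036, rank 99.8, 147th). Peaks covered 19395 bp of the 20 kb upstream in GFP- and 19667 bp in GFP+, the most of all 2196 microRNA genes in either list. Most of this was the peak over the Myh6 start, which reaches a little beyond the window at 16294 bp in GFP- and 15936 bp in GFP+ and was the 2nd largest by area in both lists. The Myh6 side of the locus was thus much alike, whereas upstream of it, toward Myh7, chr14:54969610-54971826 at rank 85.1 in GFP- was met by separate GFP+ peaks at ranks 74.1 and 43.0.

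Mir499, at chr2:155622880-155622958 on the plus strand, is intronic in Myh7b and had no peak over its hairpin in either list, the nearest being 1643 bp away in GFP- and 1586 bp in GFP+. At the Myh7b start, whose sequence is printed above, the GFP- peak of 757 bp had rank 83.6 (chr2:155610952-155611708) and the GFP+ peak of 1397 bp had rank 88.9 (chr2:155610937-155612333), a difference of 5.36 points. The GFP+ peak also took in a GFP- peak of 611 bp at rank 65.5. By rank of area per bp the start difference was -13.7 points, so its direction depends on the measure. Within 20 kb upstream of the hairpin the covered length was 3785 bp in GFP- and 3257 bp in GFP+.

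Mir1a-2 (chr18:10785481-10785552) and Mir133a-1 (chr18:10782909-10782976), the second copies of miR-1 and miR-133a, lie on the minus strand in Mir133a-1hg and antisense within introns of Mib1, a ubiquitin ligase gene. Mir1a-2 had no peak over its hairpin in either list. Mir133a-1 was overlapped by 33 bp by a GFP- peak at rank 4.90 and by none in GFP+, where a peak at rank 21.0 ended 25 bp short of it. No host start had a peak within 250 bp in either list. The highest-ranked peaks of the locus were alike, with ranks of 84.5 in GFP- and 80.7 in GFP+ for chr18:10784101-10784758, between the hairpins, and its partner and of 90.2 and 90.4 for chr18:10787305-10788191, upstream of both, and its partner. The low-ranked peaks were less so: chr18:10785166-10785395, 230 bp at rank 5.57 between the hairpins, was called in GFP- alone, and the peak at Mir133a-1 had a length of 715 bp in GFP- and 402 bp in GFP+. This second locus therefore held shorter peaks than the Mir1a-1 and Mir133a-2 locus in both populations, covering 9.70% and 7.39% of its windows against 40.4% and 38.5%.

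**Figure D2:**
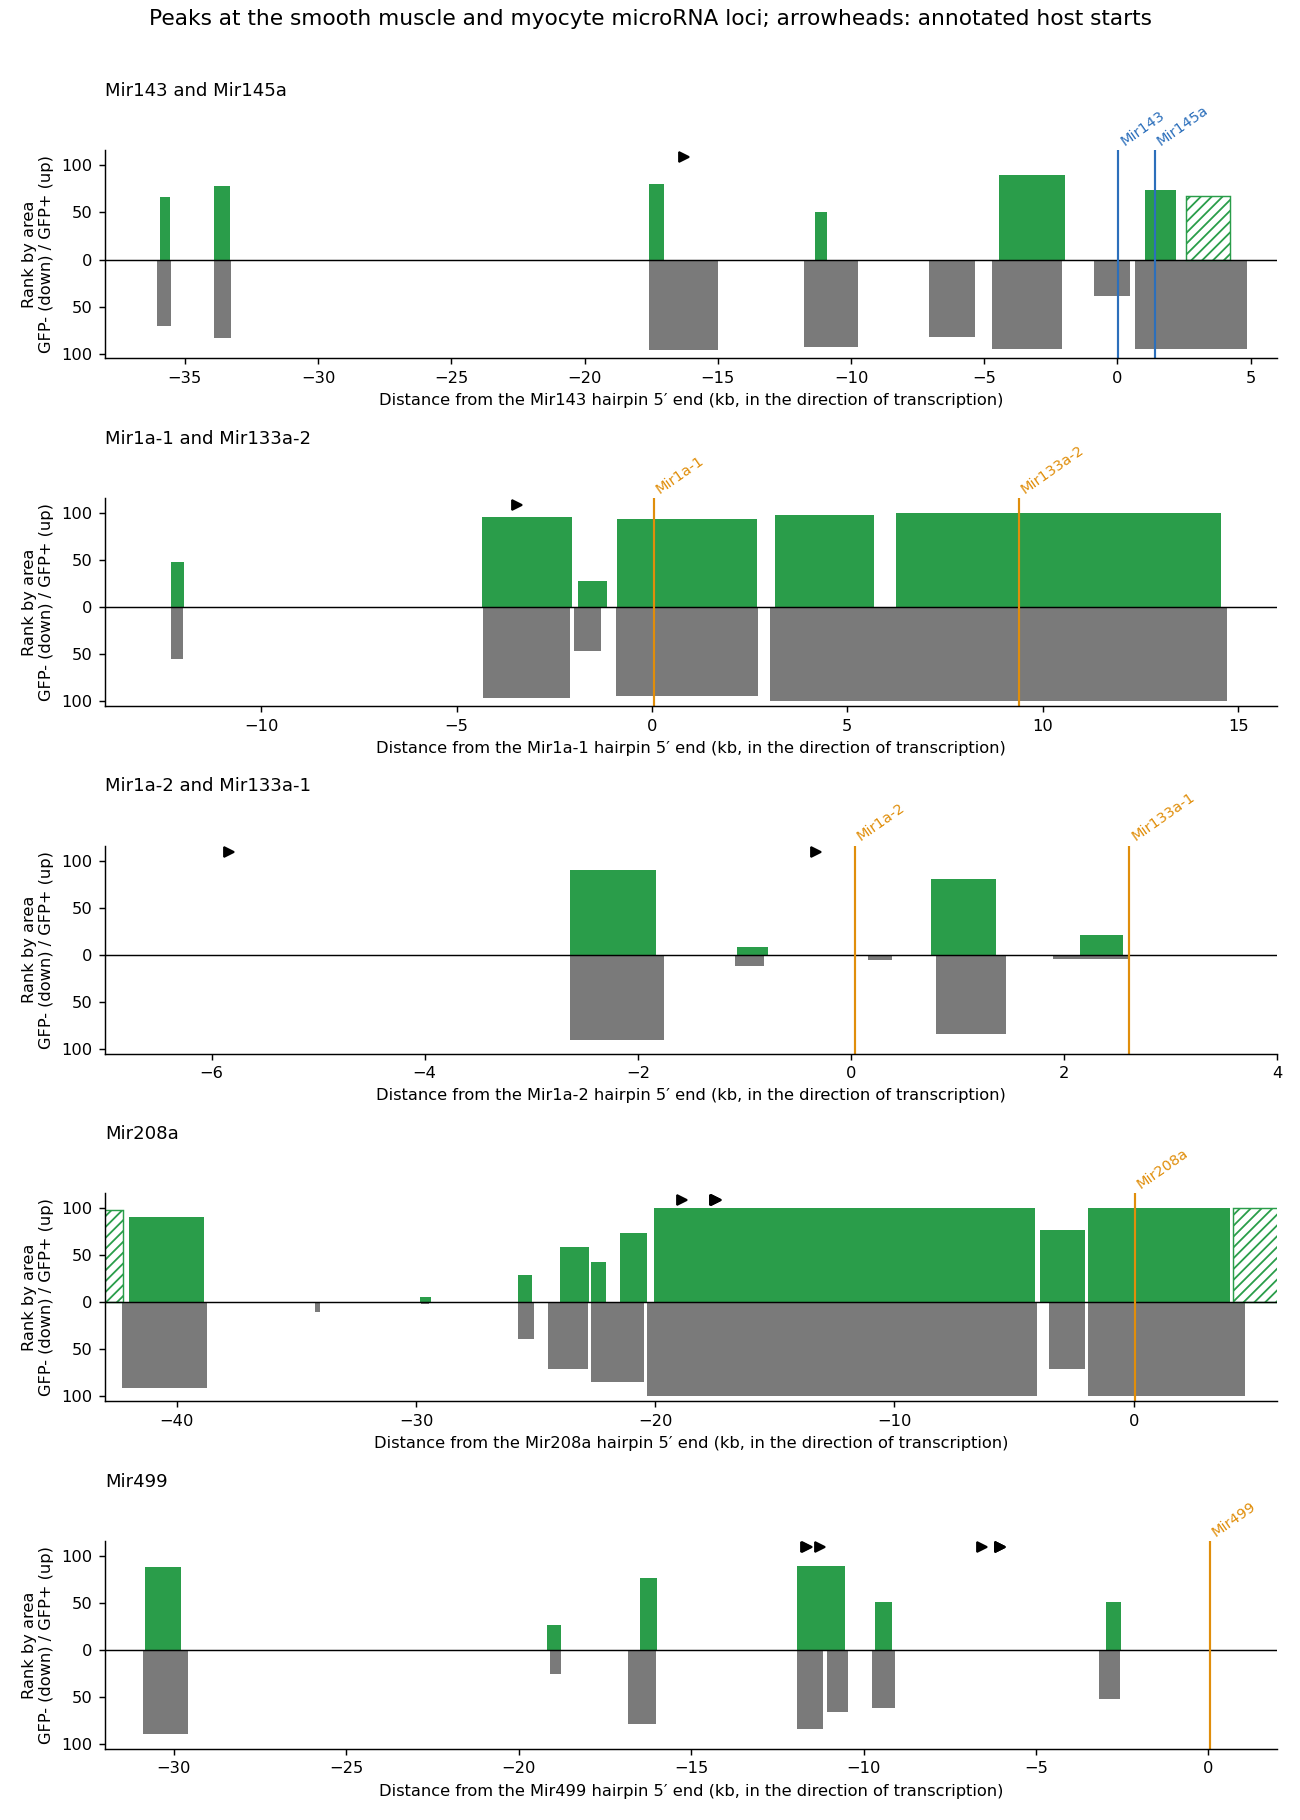
Peaks at the smooth muscle locus (top) and the 4 myocyte loci by distance in kb from the first hairpin's 5′ end, drawn as in the map of Egfl7, with coloured lines at the hairpins and hatched bars for GFP+ peaks outside the windows that overlap a GFP- peak. At Mir143 and Mir145a the GFP- peaks are longer and cover 32.4% of the locus against 13.0% in GFP+, whereas at Mir208a the lists cover 64.4% and 61.1%.

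Across the members, 7 of 9 microRNA genes had a peak over the hairpin in GFP- and 5 of 9 in GFP+, where 10.3% and 8.56% of all microRNA genes had one. The endothelial count was 1 of 1 in both lists, the smooth muscle count 2 of 2 in GFP- and 1 of 2 in GFP+, and the myocyte count 4 of 6 and 3 of 6. A peak lay within 20 kb upstream of 9 of 9 members in both lists, against 50.9% of microRNA genes in GFP- and 47.2% in GFP+. Members were thus more often near peaks than microRNA genes at large in both populations, and their presence or absence alone hardly separated the populations.

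At host starts, 0 of 9 microRNA members were over 20 points higher in GFP+ and 2 of 9 lower, both through the same Carmn start, where 1.13% and 4.19% of the 1240 microRNA genes with a host were. In the upstream window 0 were higher and 0 lower by over 20 points, where 1.82% and 6.15% of microRNA genes were. The differences at host starts were 18.1 points for Mir126a, -96.5 for Mir143 and Mir145a and -0.168 to 5.36 for the myocyte microRNAs. The covered length upstream, GFP+ over GFP-, was 2.99 for Mir126a, 0.347 and 0.357 for Mir145a and Mir143, and 0.771 to 1.02 for the 6 myocyte microRNAs. These ratios differed between the classes, but the endothelial class holds 1 microRNA gene and the smooth muscle class 2 with nearly the same window. Over all 2196 microRNA genes, 15.9% had more covered sequence in GFP+ and 36.1% had less. The highest rank, which a single shared peak can set, separated the classes less.

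**Figure D3:**
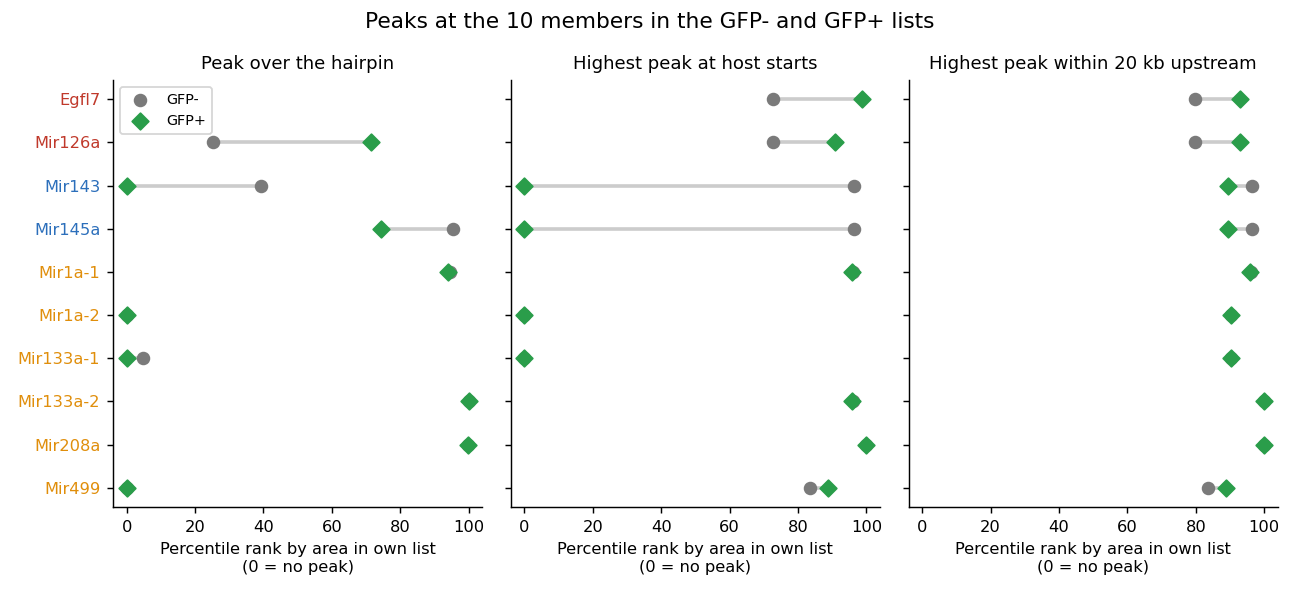
Percentile rank by area of the peak over the hairpin, of the highest peak at host starts and of the highest peak within 20 kb upstream for each member (names coloured by class: red endothelial, blue smooth muscle, orange myocyte), with circles for GFP- and diamonds for GFP+; Egfl7 has no hairpin. Myocyte points nearly coincide, whereas the hairpin of Mir126a stands at 25.3 and 71.5.

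**Figure D4:**
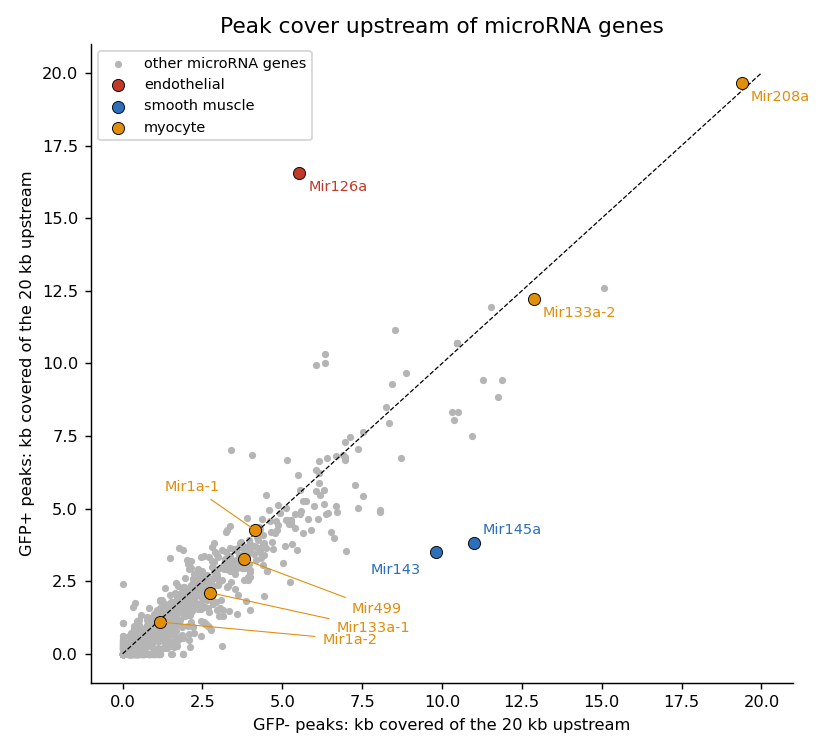
Length in kb of the 20 kb upstream of each of 2196 microRNA genes that peaks covered in GFP- (horizontal) and GFP+ (vertical), with members coloured by class and a dashed line of equality. Mir126a stands farthest above the line, at 5529 and 16554 bp, and Mir145a and Mir143 farthest below it.

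Peaks were also compared one by one with their partners in the other list. At the endothelial locus 11 of 11 GFP- peaks and 11 of 15 GFP+ peaks (73.3%, Wilson 95% interval 48.0 to 89.1) overlapped a peak of the other list. The lower bound for the GFP- share was 74.1%. At the smooth muscle locus it was 6 of 8 GFP- peaks (75%, 40.9 to 92.9) and 6 of 6 GFP+ peaks (lower bound 61.0%). At the myocyte loci it was 24 of 26 GFP- peaks (92.3%, 75.9 to 97.9) and 25 of 25 GFP+ peaks (lower bound 86.7%). Over the whole lists 69.7% of GFP- and 86.6% of GFP+ peaks overlapped, so the share of GFP+ peaks at the endothelial locus was below that of the list. Without the lowest 20% of areas the GFP+ share was 60% at the endothelial locus and 95.7% at the myocyte loci. The intervals cover counting error only. Neighbouring peaks of a locus are not independent, so the intervals cannot decide whether a locus differs from the list.

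Pairs were counted where both peaks lie in the windows of a locus. In the 11 overlapping pairs at the Egfl7 locus, the GFP+ peak was the longer in 10 and the higher-ranked in 10, with a median length ratio of 1.91 and a median rank difference of 35.9 points. In the 6 pairs at Mir143 and Mir145a the GFP+ peak was the longer in 1 and the higher-ranked in 0, with medians of 0.517 and -10.7 points. Over all 57220 overlapping pairs, the GFP+ peak ranked higher in 35% and was longer in 36.9%, with medians of -2.03 points and 0.932. The median rank difference was -1.47 points over 6 pairs at Mir1a-1 and Mir133a-2, -1.66 over 4 at Mir1a-2 and Mir133a-1, -0.952 over 9 at Mir208a and -1.10 over 7 at Mir499. The myocyte loci were thus close to the median of all pairs, and the endothelial and smooth muscle loci lay to either side of it. Summits of overlapping peaks lay within 50 bp of each other in 4 of the 11 endothelial pairs and 5 of the 6 smooth muscle pairs.

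**Figure D5:**
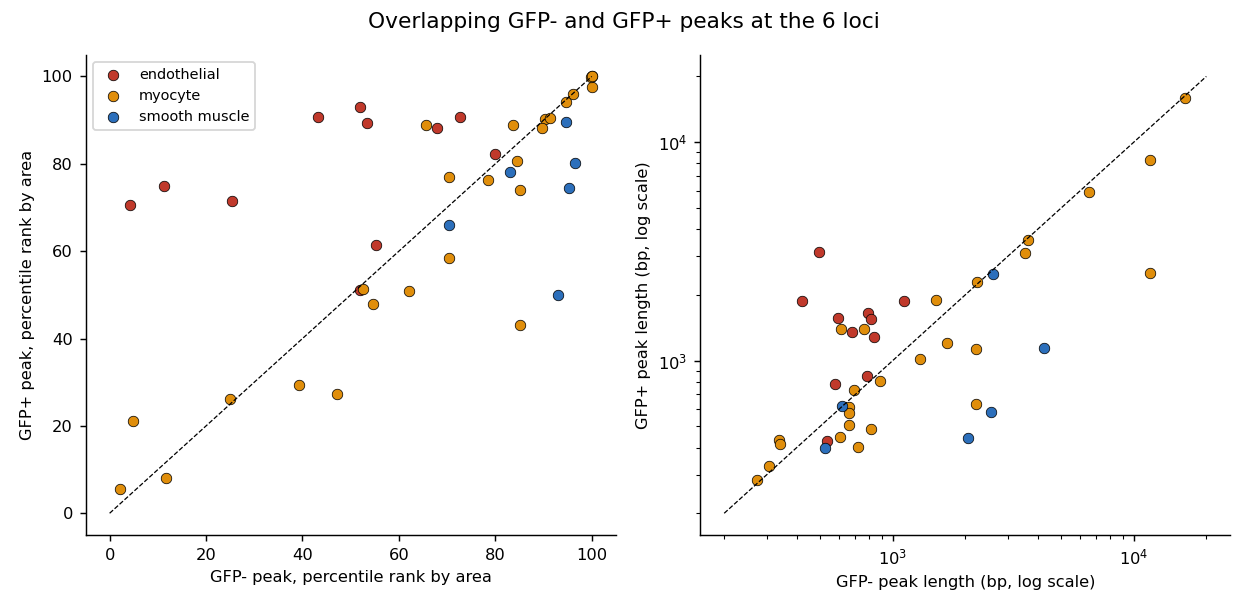
Overlapping GFP- and GFP+ peaks at the 6 loci, by percentile rank by area (left) and by length in bp on log scales (right), with a dashed line of equality and points coloured by class. Of the 11 endothelial pairs 10 lie above the line in rank, and all 6 smooth muscle pairs lie below it.

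Short sequence words were counted in all these peaks on both strands, and matches of different words may overlap. At the Egfl7 locus 2 of 11 GFP- and 4 of 15 GFP+ peaks held the ETS word CAGGAAGT, where a median of 7.94% and 11.0% of peaks of similar length held it. In the upstream peak of Egfl7 there were 2 ETS matches in both lists, and 6.1% of GFP- peaks and 18.4% of GFP+ peaks of similar length held 1 or more. It was found in 2 of 8 GFP- and 1 of 6 GFP+ peaks at the smooth muscle locus, where the medians were 14.3% and 7.77%, and in 2 of 26 and 1 of 25 at the myocyte loci, where they were 8.47% and 9.59%. The GATA word AGATAA was found in 11 of 26 GFP- and 9 of 25 GFP+ myocyte peaks, where the medians were 27.8% and 26.2%, and in 0 of 11 GFP- and 3 of 15 GFP+ endothelial peaks, where they were 26.5% and 30.8%. MEF2 matches, named for a family of muscle regulators, were in 3 of 26 and 3 of 25 myocyte peaks, where the medians were 9.66% and 9.70%. Endothelial peaks held them in 1 of 11 GFP- and 2 of 15 GFP+, beside medians of 9.45% and 9.88%. Smooth muscle peaks held them in 1 of 8 and 1 of 6, beside 12.4% and 9.68%. The TEAD word CATTCC was in 12 of 26 and 12 of 25 myocyte peaks, with medians of 39.0% and 37.9%. It was in 4 of 11 GFP- and 9 of 15 GFP+ endothelial peaks, with medians of 37.6% and 48.5%. For smooth muscle peaks it was 6 of 8 and 2 of 6, with medians of 59.7% and 32.6%. Counts of so few peaks, some of them overlapping between lists, describe these loci only.

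Other microRNA genes, listed by tissue, were described by the highest rank within 20 kb upstream. Of 22 endothelial and vascular genes other than the members, 0 were over 20 points higher in GFP+ and 2 lower, Mir221 and Mir222, which share a peak at rank 34.9 in GFP- and have none in GFP+. Of 9 fibroblast genes 0 were higher and 2 lower, Mir199a-2 and Mir214, which lie in the same transcript and had ranks of 81.4 in GFP- and 54.6 in GFP+. Of 10 muscle genes and of 7 blood genes 0 were higher and 0 lower. By covered length, however, Mir497 and Mir195a of the muscle list gained the 2nd and 4th most of all microRNA genes in GFP+, 3986 and 3661 bp. Of 15 neural, liver and stem cell genes, Mir192 was higher, at 0 and 28.6, and Mir124a-2 lower, at 39.9 and 11.2. Median differences were 0 in all lists but the fibroblast list, at -12.8 points, beside 0 for all microRNA genes. No gene of the endothelial list was thus over 20 points higher in GFP+ by this measure, and Mir126a, at 13.1 points, was not either. Below that limit, Mir322 and Mir503, with the same peak upstream, had ranks of 62.8 in GFP- and 76.7 in GFP+, and Mir10a was 10.8 points higher in GFP+.

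The protein-coding genes with the pair of start ranks nearest to that of Egfl7 (72.6 in GFP- and 98.7 in GFP+), by straight-line distance over the 2 lists, were Pdgfb, Med13, Clec14a, Afmid and Tk1, at distances of 4.56 to 7.18 points, and Afmid and Tk1 share 1 peak in each list. Pdgfb had ranks of 76.1 and 95.7, Med13 of 71.2 and 93.8, Clec14a of 77.0 and 93.8, and Afmid and Tk1 both of 69.9 and 92.1. The Egfl7 ranks come from different starts. The GFP- rank is that of the starts near position 26586630, and the GFP+ rank is that of the peak beyond the 3′ end of the gene. These genes are therefore not matched to a single Egfl7 promoter. The microRNA genes with upstream ranks nearest to those of Mir126a were Gm44458, Gm47291, Mir499, Gm23701 and Gm24303, at 3.65 to 7.21 points. Mir499 was among them because its highest upstream rank was 83.6 in GFP- and 88.9 in GFP+, although its covered length did not grow.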

How the data were processed

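ATAC-Seq libraries of sorted mouse heart nuclei were analysed, 2 replicates of GFP- and 2 of GFP+. The authors cleaned the reads with fastp and aligned them to mm10 using bowtie2 (2.3.5.1 in the submitters' processing notes). After a mapping quality filter (SAMtools), duplicate removal (Picard) and downsampling, peaks came from Genrich run in ATAC-Seq mode. The authors deposited a single narrowPeak list for each population, made from its 2 replicates jointly. In the deposited lists, column 7 is an area, the caller's signal added up along the peak. The deposited score is that signal per bp with a limit of 1000, and the deposited -log10 p-value refers to the summit. Longer peaks have larger areas, and lists called separately differ in how far a peak extends, which bears on every length and rank given here.

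Groups came from the sample labels. Peaks were compared with GENCODE M21 and RefSeq GRCm38.p6 annotation on chromosomes 1 to 19 and X. A host transcript contains the hairpin on its strand, and a start peak overlaps a start with 250 bp to each side. Hosts of Mir143, Mir145a, Mir1a-1 and Mir133a-2 are in RefSeq alone. Overlap meant at least 1 bp. With 1 pooled list per population no test, p-value or replicate error was possible. Similar length meant 0.8 to 1.25 times the length of the peak. The named genes were all members and their hosts, listed microRNA genes that differed by over 20 points, and the 5 nearest genes by rank. Mir92a-1, on the vascular list, matched no gene record. The members and lists were chosen with earlier results of these data known. Overlap and rank steps were checked on simulated data with 0 differences from direct comparison. Calculations used Python 3.11.15, numpy 2.4.6, pandas 2.3.3, pysam 0.24.0, samtools 1.23.1 and matplotlib 3.10.9. The alternatives changed the start and upstream windows, the ranking measure, the hairpin margin, the overlap and the threshold on area, and 2 (GENCODE hosts alone, and other windows for the order by covered length) were added after seeing the data.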

Additional observations from a re-analysis of the deposited data

How the results depend on the processing

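No paired analysis was possible because each deposited list pools both replicates, and for the same reason no replicate could be left out. The number of members over 20 points higher at host starts was 1, and it was 2 (Egfl7 and Mir126a) with 1000 bp at a start, with ranks by summit -log10 p or by area per bp, and with the 5′ end of the gene record alone. The number lower was 2 (Mir143 and Mir145a, by the same start), and it was 0 with 1000 bp at a start and 0 with GENCODE hosts alone, which leave both without a host. Requiring overlap of 50% of both peaks lowered the shared share of endothelial peaks to 63.6% in GFP- and 46.7% in GFP+, and of smooth muscle peaks to 37.5% and 50%, while leaving out the lowest 20% of areas raised that of myocyte GFP- peaks to 100%. The counts of members with a hairpin peak (6 to 8 in GFP-, 5 to 6 in GFP+) and with an upstream peak (9 in both) kept within 1.5 times. Of 56 differences at host starts under the alternatives 49 kept their sign, and of 40 upstream differences 33 did, where a difference of 0 counts as a sign of its own. Peak lists without replicates limit all of this: no error of a rank or length is known, and a peak that is not called may be open below the threshold.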
